A study of Mus musculus with 24 samples.

Results

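Of the 12759 transcripts listed in the count tables, 10 encode the chaperones and folding enzymes of the endoplasmic reticulum (ER) described here, and they were followed in Neuro-2a (N2a) cells, a mouse neuroblastoma line, with and without the cap-binding protein eIF4E3 and with and without the mTOR inhibitor Torin1. The members were chosen by function, as genes whose symbol is one of Hspa5, Hyou1, Hsp90b1, Calr, Canx, Pdia3, Pdia4, Pdia6, Ganab and Prkcsh, and they were selected with earlier mRNA, footprint and translation efficiency (TE) results of these same libraries known. Their values in every comparison are therefore a description, and no count of members below is a test. Each of the 10 was listed in all 8 count tables and passed the filter on low counts in every fit.

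All cells had gone through the same 2 rounds of transfection with a Cas9 and puromycin-resistance plasmid and the same selection. The ctrl cells received the empty vector and the KO cells received vectors carrying 3 guide RNAs against Eif4e3 exons, and the surviving cells were used, with no single clone named. Each population then received either Torin1 (250 nM) or its vehicle DMSO during 2 h, and RNA-seq and ribosome profiling (ribo-seq) libraries were made from replicates that the labels give as different passages. RNA-seq comprised 3 libraries in each of the 4 conditions, and ribo-seq comprised 3 in each except ctrl DMSO, where replicates 1 and 3 were used and replicate 2 was not analysed here.

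Proteins that enter the secretory pathway fold in the ER lumen. Hspa5 (BiP), an Hsp70, binds exposed hydrophobic stretches in an ATP-driven cycle, and Hyou1 (Grp170), a large relative of Hsp70, exchanges its nucleotide. Hsp90b1 (Grp94) is the Hsp90 of the lumen. N-glycoproteins follow a second route, in which glucosidase II, made of the catalytic subunit Ganab and the subunit Prkcsh, trims glucose from the glycan, the lectins calnexin (Canx) and calreticulin (Calr) hold the trimmed form, and the disulfide isomerase Pdia3 (ERp57) works beside them. Pdia4 (ERp72) and Pdia6 (P5) are further disulfide isomerases. When unfolded proteins build up, the factor ATF6, together with NF-Y, drives many of these genes through the ER stress response element (ERSE), a CCAAT box and a CCACG box held at a fixed spacing.

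The ERSE is a sequence that many of these genes are known to share. It was searched as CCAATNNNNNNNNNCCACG on both strands of the promoters in a RefSeq table for GRCm38.p6, which spans 250 bases before and 50 after each gene's start. Of the 9 members with an entry, 5 held it, against 0.119% of all 32851 promoters (39 of them). Each site is printed 5′ to 3′ on the strand that carries the motif, with 5 bases on either side, and the capitals mark the letters the motif fixes.
Hspa5: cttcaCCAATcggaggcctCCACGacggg
Calr: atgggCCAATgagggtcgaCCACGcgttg
Hsp90b1, distal site: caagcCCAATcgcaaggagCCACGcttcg
Hsp90b1, proximal site: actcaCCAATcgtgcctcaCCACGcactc
Canx: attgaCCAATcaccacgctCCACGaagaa
Pdia6: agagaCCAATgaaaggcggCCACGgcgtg
The Hspa5 site lay at chr2:34772020-34772048 on the plus strand, with its CCACG box 46 bases before the RefSeq start. The longer GENCODE transcript used for the lengths below begins upstream of this site, so in that annotation the site falls in the 5′ transcript leader (5′ TL). The Calr site lay at chr8:84847070-84847098 (plus strand), the Hsp90b1 sites at chr10:86705633-86705661 (minus) and chr10:86705528-86705556 (plus), the Canx site at chr11:50325795-50325823 (minus) and the Pdia6 site at chr12:17266486-17266514 (plus), all upstream of their genes. These 5 promoters include the Hsp70, the Hsp90 and both lectin chaperones. No such run of letters was in the windows of Pdia3, Pdia4, Ganab or Prkcsh. A related element, ATTGGNCCACG, was in none of the 9 windows and in 0.0365% of all promoters. The CCAAT box alone, which every ERSE contains, was in 8 of the 9 and in 37.4% of all. Hyou1 had no entry.

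Library totals ran from 17047795 to 28910907 CDS counts in RNA-seq and from 669010 to 5284909 in ribo-seq, with ctrl DMSO replicate 3 the shallowest. The 10 members took 0.594% to 0.708% of the RNA-seq counts and 1.22% to 1.64% of the footprints of a library. Eif4e3 mRNA was at 12.0 to 18.2 CPM (counts scaled to library size with TMM) in the 6 ctrl libraries and at 2.89 to 5.04 in the 6 KO libraries. Its footprints were at 11.6 to 22.0 CPM in ctrl and 2.29 to 6.61 in KO, so the labels and the targeted gene matched, with some reads left in KO. Of 11 sympathoadrenal markers 10 were listed, led by Chgb at condition means of 1448 to 1748 CPM. Of 8 markers of other cell types 2 were listed, and the one in all RNA-seq tables, Pecam1, was at 2.85 to 4.03 CPM.

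The members are among the more abundant and more heavily translated messages of these cells. In ctrl DMSO cells their mRNA per kilobase of coding sequence lay between the 82.4 and 98.5 percentiles of 10340 transcripts, and their footprints per kilobase between the 91.8 and 99.3 percentiles. Calr led both scales, with mRNA at 966 ± 93.9 CPM per kb (SD, n = 3) and footprints at 2245 ± 314 CPM per kb (SD, n = 2). Pdia4 had the lowest mRNA, 101 ± 7.66 CPM per kb (n = 3), and Prkcsh the lowest footprints, 257 ± 42.3 CPM per kb (n = 2), so that the highest and lowest members differed 9.55-fold in mRNA and 8.72-fold in footprints. Several neighbours in this order could not be separated. For mRNA in ctrl DMSO the libraries of Pdia3, Hsp90b1, Canx and Hspa5 overlapped from each to the next, as did those of Pdia6, Prkcsh and Hyou1.

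Their ratio of footprint CPM to mean mRNA CPM, a level of TE, differed among the members before any treatment. Its SD and overlaps carry the spread of the footprint libraries only, because the mean mRNA of the condition is the divisor. In ctrl DMSO it was highest for Canx, at 3.18 ± 0.461 (SD, n = 2), followed by Pdia4 at 2.72 ± 0.0969. It was lowest for Prkcsh, at 1.29 ± 0.211, and for Hyou1, at 1.54 ± 0.183, whose libraries overlapped each other. From Calr down to Ganab, the libraries of each member overlapped those of the next. The 2 subunits of glucosidase II stood at 1.85 ± 0.0110 for Ganab and 1.29 for Prkcsh. Their values did not overlap, but the spread of mRNA is left out. That mRNA ran from 364 to 456 CPM for Ganab and from 250 to 387 CPM for Prkcsh. Highest and lowest differed 2.48-fold in ctrl DMSO, 2.22-fold in KO DMSO and 2.88-fold in ctrl Torin1. In KO Torin1 they differed 5.86-fold, with Hspa5 at 3.93 ± 0.142 and Hyou1 at 0.670 ± 0.0873 (n = 3 each).

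**Figure D1:**
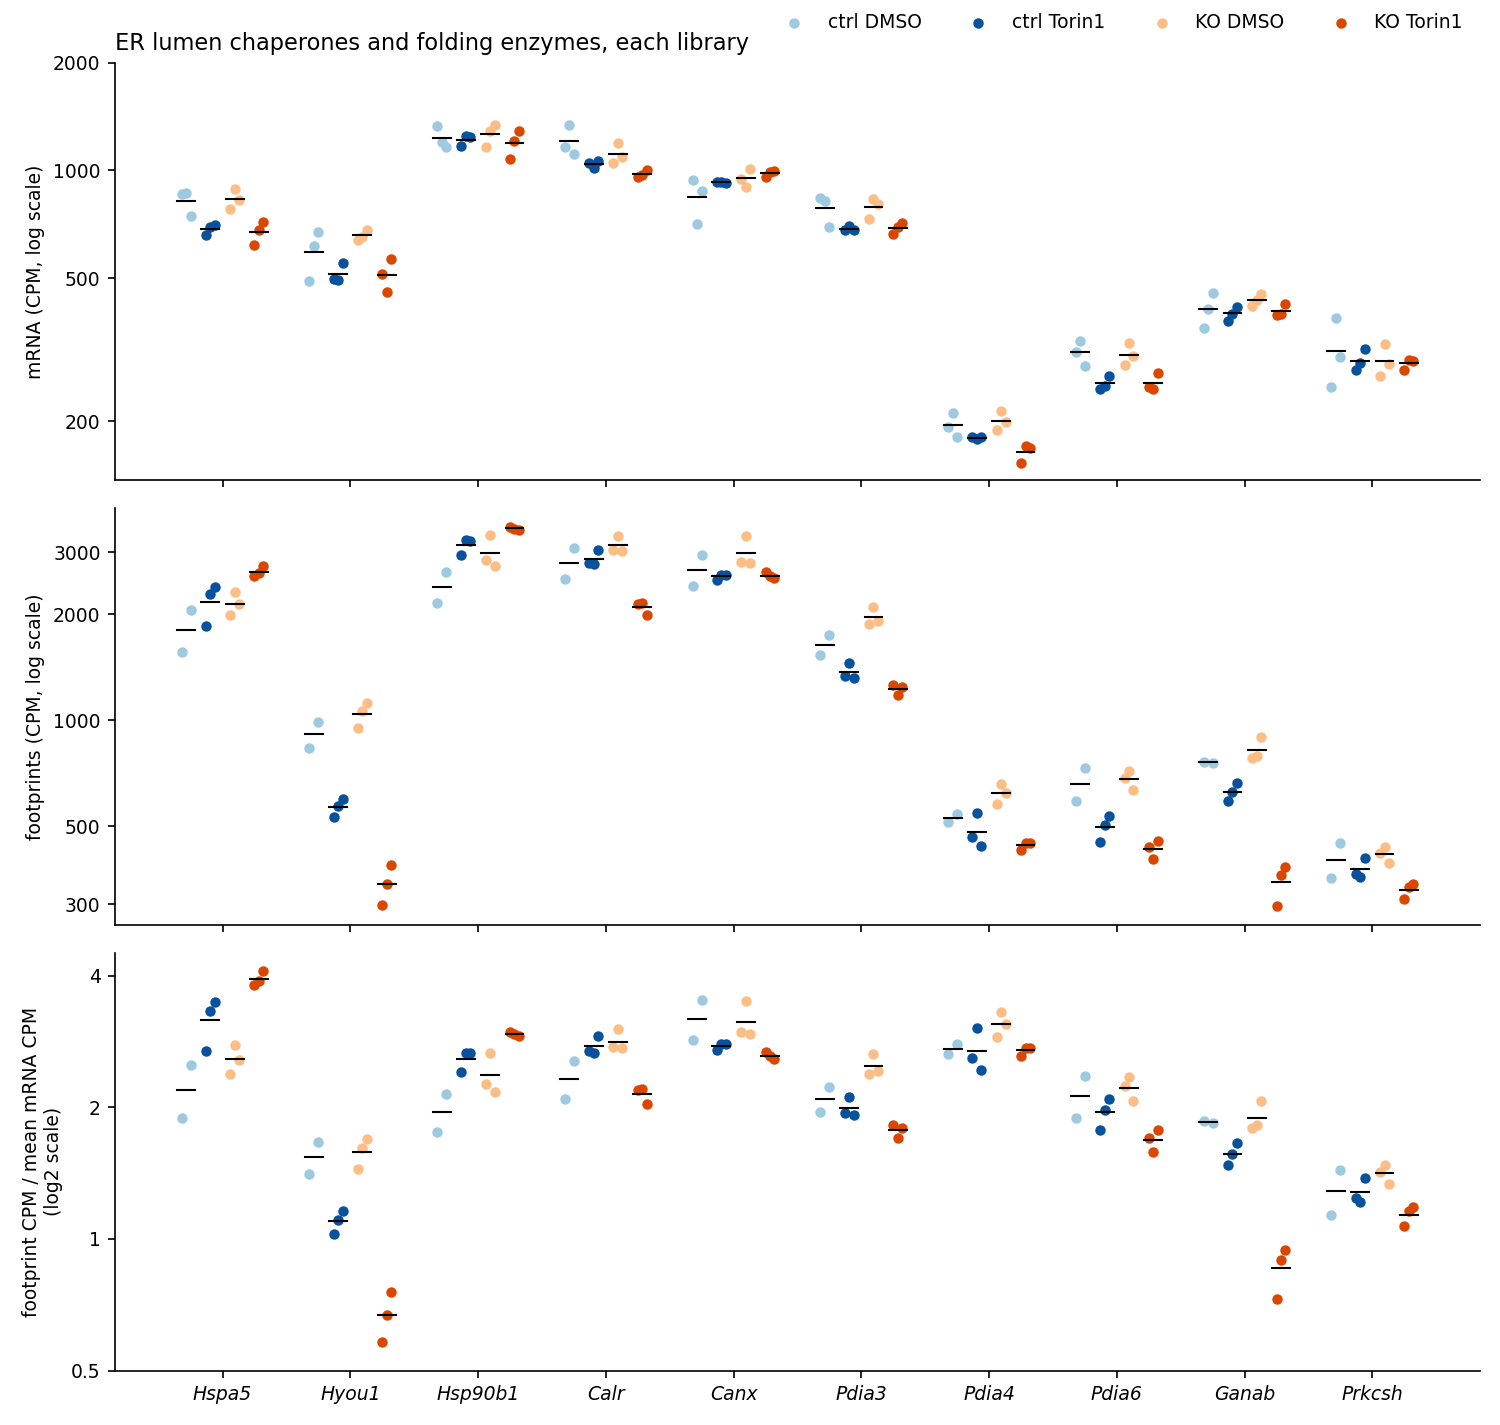
mRNA (top, CPM, log scale), footprints (middle, CPM, log scale) and footprint CPM over the mean mRNA CPM of the condition (bottom, log2 scale) for each member; a point is 1 library and a bar the mean of its condition (3 libraries, 2 for ctrl DMSO footprints). The KO Torin1 libraries of Hyou1 (299 to 388 CPM) and Ganab (296 to 383 CPM) sit below all other footprint libraries of the same gene, while their mRNA libraries overlap those of other conditions.

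The first comparison was Torin1 against DMSO in ctrl cells, which gives the response to mTOR inhibition when eIF4E3 is present. Among the members Hyou1 alone was called, with lower footprints. A transcript is called here where its adjusted p in edgeR's quasi-likelihood fit over all transcripts was below 0.05. Hyou1 footprints were at 835 and 989 CPM in the DMSO libraries and at 530, 570 and 598 CPM in the Torin1 libraries. The groups did not overlap, and the change was −0.68 ± 0.14 on the log2 scale (SE), which is 0.624-fold. Its mRNA differed by −0.20 ± 0.13.

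The other members stayed closer to their DMSO level in ctrl. Their footprint differences ran from −0.40 for Pdia6 to 0.39 ± 0.14 for Hsp90b1. Hsp90b1 was at 2159 and 2634 CPM in DMSO and at 2940, 3244 and 3237 CPM in Torin1, so all Torin1 libraries were higher. Hspa5 was at 1563 and 2058 CPM in DMSO and 1850, 2281 and 2393 CPM in Torin1, and these groups overlapped. The 1 member of 10 called compares with 15.6% of all 10693 transcripts tested, and the members' median was −0.10 beside 0.02 for all. For TE no member was called (4.68% of all), with differences from −0.48 ± 0.19 for Hyou1 to 0.53 ± 0.19 for Hspa5, 3 members at an unadjusted p under 0.05 and none by DESeq2. For mRNA none was called by edgeR or DESeq2 (2.73% of all), 2 were at an unadjusted p under 0.05, and 9 of the 10 differences were below 0, with a median of −0.15 beside 0.00.

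Which library stood in for ctrl DMSO mattered. Without the shallow replicate 3, 3 members were called for footprints, with Hspa5 and Hsp90b1 higher and Hyou1 lower. Without replicate 1, Hyou1 and Pdia6 were called, both lower. With the replicate number as a block, Hsp90b1 was called as higher (0.37 ± 0.13) and Hyou1 (−0.69 ± 0.13) and Pdia6 (−0.41 ± 0.13) as lower. Over all transcripts the block called 1787 for footprints, against 1670 without it. For mRNA the block called no member but 1328 transcripts, against 299 without it.

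In KO cells Torin1 moved footprints of most members, and in both directions. Hyou1 and Ganab, a nucleotide exchange factor and a glycan-trimming enzyme, were lowest. Hyou1 was at 951, 1062 and 1118 CPM in DMSO and at 299, 344 and 388 CPM in Torin1. That is a log2 change of −1.62 ± 0.11, or 0.324-fold. Ganab was at 782, 793 and 899 CPM in DMSO and at 296, 363 and 383 CPM in Torin1. Its change was −1.27 ± 0.11, or 0.415-fold. In both genes every Torin1 library lay far below every DMSO library.

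The lectin chaperones parted. Calreticulin footprints were at 3048, 3349 and 3030 CPM in KO DMSO and at 2140, 2153 and 1990 CPM in KO Torin1, a change of −0.60 ± 0.10 with no overlap. Calnexin was at 2822, 3333 and 2795 CPM and then at 2630, 2570 and 2531 CPM. All Torin1 libraries were below all DMSO libraries, but the difference, −0.23 ± 0.10, was not called.

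The 3 disulfide isomerases were all called lower in KO cells. Pdia3 was at 1880, 2096 and 1910 CPM in DMSO and at 1257, 1177 and 1242 CPM in Torin1, a change of −0.70 ± 0.10. Pdia6 changed by −0.68 ± 0.11, from 635 to 719 CPM to 404 to 453 CPM, and Pdia4 by −0.51 ± 0.10, from 579 to 661 CPM to 430 to 449 CPM. Prkcsh, the partner subunit of Ganab, was at 394 to 436 CPM in DMSO and 311 to 343 CPM in Torin1, a smaller change of −0.36 ± 0.11.

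BiP went the other way. Hspa5 footprints were at 1988, 2313 and 2138 CPM in KO DMSO and at 2567, 2618 and 2752 CPM in KO Torin1, without overlap, a change of 0.28 ± 0.10 that was called as higher. The call was absent without KO DMSO replicate 1, KO Torin1 replicate 2 or KO Torin1 replicate 3, and over all 12 alternative fits the change lay between 0.23 and 0.53. Hsp90b1 was at 2857, 3351 and 2737 CPM in DMSO and at 3547, 3506 and 3467 CPM in Torin1. Its difference of 0.21 ± 0.10 was not called.

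In all, 8 of the 10 members were called for footprints in KO cells, 7 lower and 1 higher, where 40.6% of the 10822 transcripts tested were called. The members' median was −0.56 beside 0.02 for all. With the replicate block all 10 were called, 8 lower, with Canx lower (−0.23 ± 0.09) and Hsp90b1 higher (0.22 ± 0.09) in addition. Over all transcripts that fit called 4759, against 4390 without the block.

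mRNA moved less. Torin1 lowered mRNA of 4 members in KO cells, with Hyou1 at −0.36 ± 0.08, Hspa5 at −0.31 ± 0.08, Pdia4 at −0.29 ± 0.07 and Pdia6 at −0.26 ± 0.07, where 9.97% of 11004 transcripts were called (1097, or 1797 with the replicate block, which called the same 4 members). Hspa5 mRNA was at 782, 887 and 829 CPM in DMSO and at 620, 680 and 719 CPM in Torin1. So for BiP the mRNA was lower and the footprints higher in the same cells. Ganab mRNA was at 419, 434 and 452 CPM in DMSO and at 395, 398 and 425 CPM in Torin1, a difference of −0.10 ± 0.06 with overlapping groups. These mRNA calls were fragile. No member was called without KO Torin1 replicate 1, without KO Torin1 replicate 2 or with all 4 conditions in one fit, and 2 were called without KO DMSO replicate 1 or KO Torin1 replicate 3.

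TE, fitted as the change of footprints beyond that of mRNA, was called for 7 members in KO cells, where 28.4% of 10535 transcripts were called. It was lower for Hyou1 (−1.26 ± 0.14), Ganab (−1.17 ± 0.13), Pdia3 (−0.51 ± 0.12), Calr (−0.42 ± 0.12), Pdia6 (−0.41 ± 0.12) and Prkcsh (−0.34 ± 0.13). It was higher for Hspa5 (0.59 ± 0.12). The Prkcsh value was called in 5 of 18 alternative fits and is the least secure of them. Pdia4, Canx and Hsp90b1 were not called, at −0.22, −0.28 and 0.29. Among all transcripts ordered by their ratio of footprints to mRNA, Hyou1 stood at the 78.6 percentile in KO DMSO and at the 34.2 percentile in KO Torin1, and Ganab at the 85.2 and 46.7 percentiles. Hspa5 stood at the 93.0 and 97.7 percentiles.

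The direction of the smaller changes rests on how libraries are scaled. TMM moved the median of all transcripts in Torin1 against DMSO by 0.21 to 0.25 for footprints and by 0.17 to 0.25 for TE relative to library size alone. Without TMM 71.1% of the footprint calls in KO cells and 71.2% of those in ctrl were higher, against 45.5% and 36.4% with it. On that scale Canx footprints in KO cells differed by 0.02, in place of −0.23, and Canx, Pdia4 and Prkcsh turned above 0 in ctrl. Hyou1 (−1.37) and Ganab (−1.02) in KO cells stayed the lowest of the members and were still called, Prkcsh (−0.11) was not, and Hspa5 and Hsp90b1 (0.53 and 0.46) were both called as higher. TE in KO cells was then called for 4 members, Hyou1 and Ganab lower and Hspa5 and Hsp90b1 higher. Over all transcripts it was called for 3892, against 2990 with TMM.

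**Figure D2:**
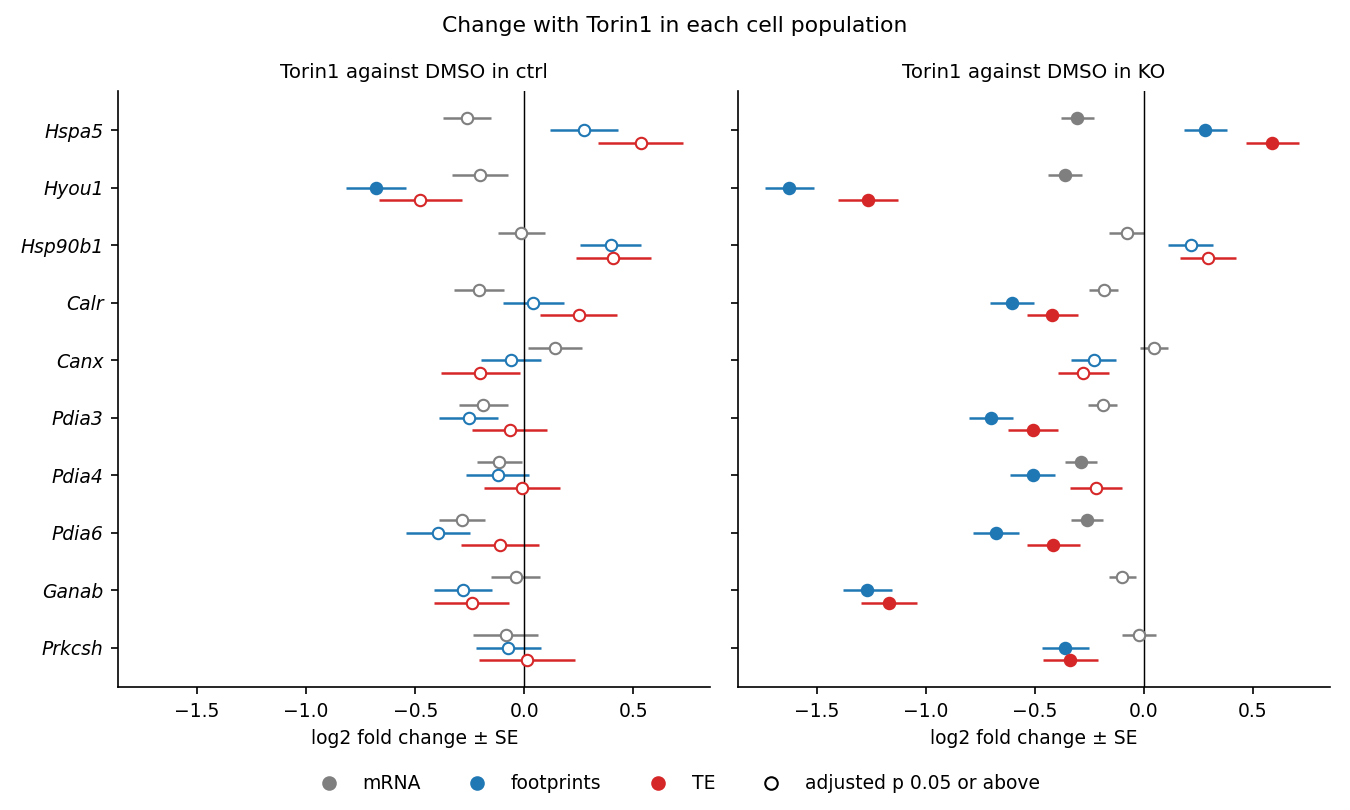
Log2 fold change with Torin1 (x axis, ± SE) of each member in ctrl (left) and KO cells (right) for mRNA, footprints and TE; open points are those with an adjusted p of 0.05 or above. Hyou1 footprints were at −0.68 in ctrl and −1.62 in KO, Ganab at −0.28 and −1.27, and Hspa5 TE at 0.53 and 0.59.

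KO against ctrl in DMSO asks what the loss of eIF4E3 does in growing cells. No member was called for mRNA, footprints or TE by edgeR or by DESeq2, and none was at an unadjusted p under 0.05. Over all transcripts 0.0183% were called for mRNA, 0.0279% for footprints and 0% for TE (none by either tool, 426 at an unadjusted p under 0.05). With the replicate block 866 transcripts were called for mRNA, in place of 2, and still no member. Footprint differences of all 10 members were above 0, from 0.05 for Pdia6 to 0.32 ± 0.16 for Hsp90b1, with a median of 0.18 beside −0.00 for all. That median was 0.06 without ctrl DMSO replicate 1 and 0.32 without ctrl DMSO replicate 3. The summed footprints of the members were 13244 and 15940 CPM in the ctrl libraries and 16012, 18113 and 16279 CPM in the KO libraries. Member mRNA differed by −0.11 to 0.18.

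KO against ctrl in Torin1 asks the same under mTOR inhibition. Here Ganab, Hyou1 and Calr were lower in KO. Ganab footprints were at 590, 624 and 662 CPM in ctrl Torin1 and at 296, 363 and 383 CPM in KO Torin1, a log2 difference of −0.85 ± 0.10, or 0.555-fold. Hyou1 was at 530, 570 and 598 CPM and then 299, 344 and 388 CPM, a difference of −0.72 ± 0.10, or 0.606-fold. Calr was at 2806, 2785 and 3036 CPM and then 2140, 2153 and 1990 CPM, a difference of −0.46 ± 0.09, or 0.728-fold. In none of the 3 did ctrl and KO libraries overlap, and each was called in all 12 alternative fits.

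Among the others Hspa5 was at 1850, 2281 and 2393 CPM in ctrl and 2567, 2618 and 2752 CPM in KO. Every KO library was above every ctrl library, at 0.28 ± 0.10. It was not called, except when the replicate number was a block (0.29 ± 0.08) or ctrl Torin1 replicate 3 was left out. Hsp90b1 and Canx were at 0.16 ± 0.09 and 0.01 ± 0.09, and Pdia6, Prkcsh, Pdia3 and Pdia4 between −0.21 and −0.13. The 3 of 10 called compare with 6.03% of 10792 transcripts. The members' median was −0.18 beside 0.00 for all.

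The same 3 were called lower for TE, where 2.85% of all were called. The values were −0.87 ± 0.11 for Ganab, −0.71 ± 0.12 for Hyou1 and −0.36 ± 0.09 for Calr. TE of Calr was the least stable of them: 7 of 18 alternative fits did not call it. With the replicate block Hspa5 TE was called as higher (0.33 ± 0.09). For mRNA no member was called by edgeR or DESeq2 (1.96% of all; 216 transcripts, 1041 with the replicate block and 6 with all 4 conditions in one fit), 1 was at an unadjusted p under 0.05, and differences ran from −0.13 for Pdia4 to 0.09 for Canx. Ganab mRNA differed by 0.03 ± 0.05 and Hyou1 mRNA by −0.00 ± 0.07.

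**Figure D3:**
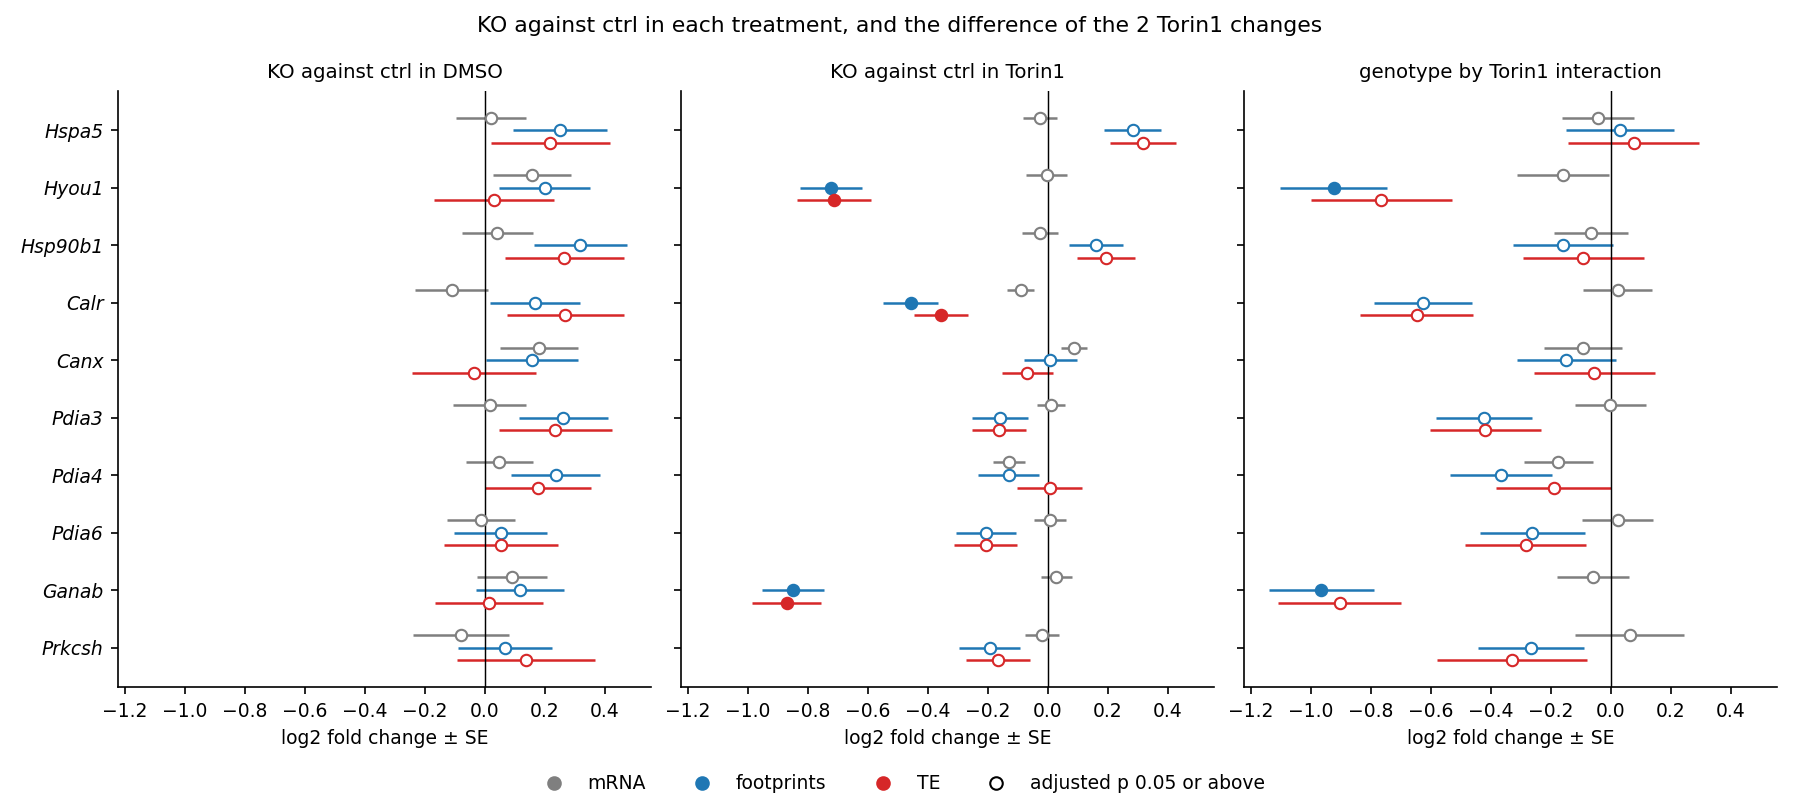
Log2 difference (x axis, ± SE) of KO against ctrl in DMSO (left) and in Torin1 (middle), and the interaction, the Torin1 change in KO minus that in ctrl (right), for mRNA, footprints and TE of each member; filled points have an adjusted p below 0.05. Footprints of Ganab, Hyou1 and Calr sit at −0.85, −0.72 and −0.46 in Torin1, and none is filled in DMSO.

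The genotype by Torin1 term tests whether the 2 Torin1 changes differ. For footprints it was called for 12 of 10563 transcripts (0.114%), each lower in KO, and Ganab and Hyou1 were 2 of them. The term was −0.97 ± 0.18 for Ganab and −0.92 ± 0.18 for Hyou1, with the ctrl changes at −0.28 and −0.68 and the KO changes at −1.27 and −1.62. By passage Hyou1 footprints changed with Torin1 by −0.66 and −0.73 in ctrl replicates 1 and 3 and by −1.67, −1.63 and −1.53 in the KO replicates. Ganab changed by −0.37 and −0.19 in ctrl and by −1.40, −1.13 and −1.23 in KO. Every KO passage lay below every ctrl passage for both genes.

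Calr had the next lowest term, −0.63 ± 0.16, with 0.04 in ctrl and −0.60 in KO, and it was called by DESeq2 and, in edgeR, without ctrl DMSO replicate 3, but not with all libraries in edgeR. The rest ran from −0.42 for Pdia3 to 0.03 ± 0.18 for Hspa5, and 9 of 10 terms were below 0, with a median of −0.32 beside −0.02 for all transcripts. The call of Ganab was absent without KO Torin1 replicate 1, a fit in which no transcript at all was called. Hyou1 was not called in that fit, nor without KO Torin1 replicate 2, KO DMSO replicate 2, ctrl Torin1 replicate 2 or ctrl Torin1 replicate 3. Both were called with the replicate block, at −0.95 ± 0.15 and −0.91 ± 0.14, among 35 transcripts in all.

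For TE the term was called for no transcript by edgeR (0%), with 591 of 10376 at an unadjusted p under 0.05 and 16 called by DESeq2. Ganab, at −0.90 ± 0.21, was among those 16. Hyou1 was at −0.77 ± 0.24 and Calr at −0.65 ± 0.19. For mRNA it was called for none of 11072 by either tool (0%), with 108 at an unadjusted p under 0.05. Member mRNA terms ran from −0.18 for Pdia4 to 0.06 for Prkcsh, none of them at an unadjusted p under 0.05.

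The length of the 5′ TL was one feature that the choice of members did not use. In GENCODE M21 models of the transcripts counted, Ganab had a 5′ TL of 21 nt, the shortest of the members, against a median of 145 nt for the 10 and of 172 nt for all. Pdia6 had 73 nt, Hyou1 113, Pdia4 126, Calr 136, Hsp90b1 154, Canx 184, Pdia3 264, Hspa5 270 and Prkcsh 347 nt. The 3 members called lower in KO against ctrl in Torin1 had leaders of 136 nt or less, but so did Pdia4 and Pdia6, which were not called. Across the 10 members the footprint difference in that comparison and 5′ TL length had a Pearson r of 0.57 and a Spearman rho of 0.65. Across 10716 transcripts the rho was 0.15. For TE the members' values were 0.56 and 0.61. The footprint change with Torin1 against DMSO went with leader length in both genotypes. Its rho over the members was 0.60 in ctrl and 0.65 in KO, and over all transcripts 0.23 and 0.26. For the footprint interaction the rho was 0.56 over the members and 0.10 over all transcripts. These are descriptions over transcripts measured in the same libraries.

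The coding sequences were G+C poor beside the rest, at a median of 49.5% against 53.2%, and the footprint difference in Torin1 was lower where G+C was higher. Across the 10 members r was −0.63 and rho −0.76, and across 10716 transcripts rho was −0.42. In DMSO, where no member was called, the same relation had an r of −0.72 and a rho of −0.67, with −0.48 over 10688 transcripts. For the interaction the rho over all transcripts was near 0 (−8.87e-05), with −0.56 over the members. The part of base composition in the footprint differences was not tested. Length of the coding sequence had an r of −0.43 and a rho of −0.01. Of the 10, Pdia4 began with a run of at least 5 pyrimidines, which 4.18% of all transcripts had.

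**Figure D4:**
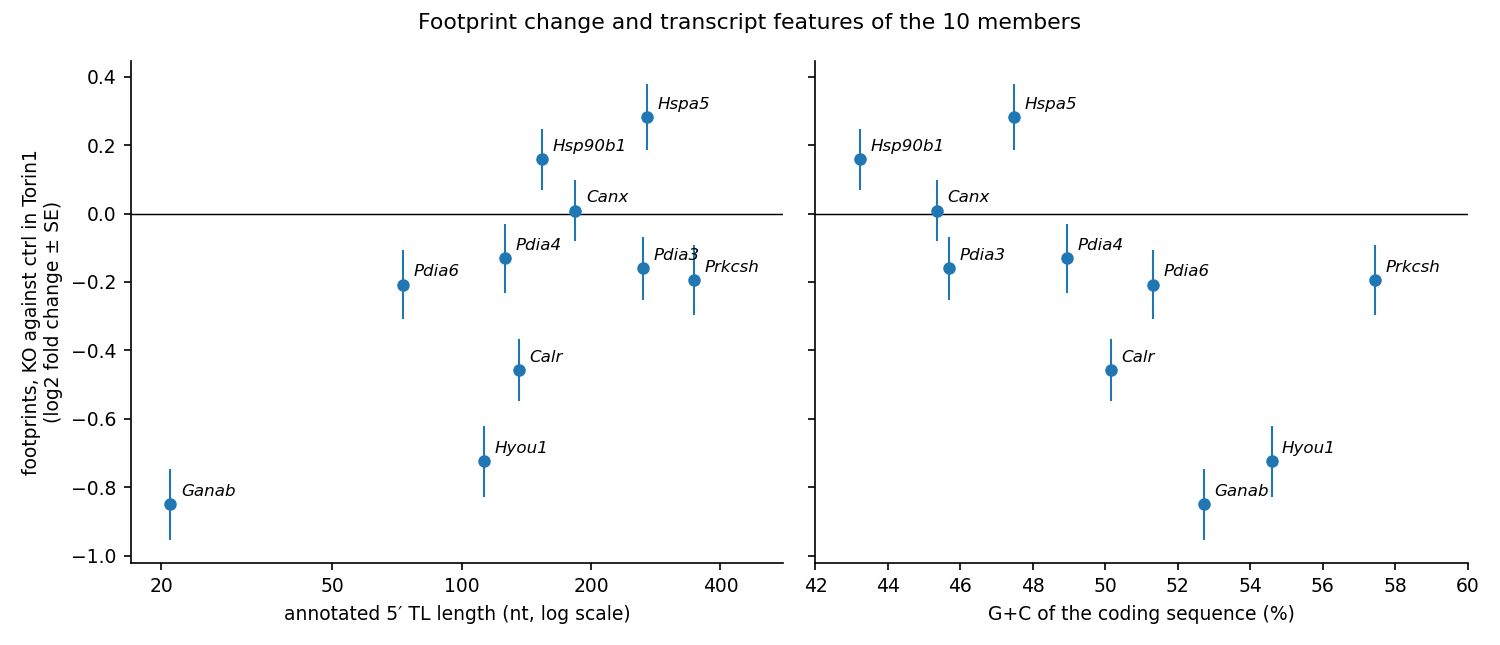
Footprint difference of KO against ctrl in Torin1 (y axis, log2, ± SE) of the 10 members against annotated 5′ TL length (left, nt, log scale) and G+C of the coding sequence (right, %). Ganab, with 21 nt, and Hyou1, with 113 nt, are lowest, and Hspa5, with 270 nt, is highest.

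The ERSE divided the 9 members with a promoter entry by sequence alone, leaving out Hyou1, which had the lowest footprint change in KO cells (−1.62). Footprint changes with Torin1 in KO cells had a median of −0.23 in the 5 members with a site (from −0.68 for Pdia6 to 0.28 for Hspa5) and of −0.60 in the 4 without (from −1.27 for Ganab to −0.36 for Prkcsh). In ctrl cells the medians were 0.04 and −0.19. For mRNA in KO cells they were −0.18 and −0.14. The ranges overlapped each time. In KO cells Hspa5 and Hsp90b1, both with sites, had footprints above their DMSO level, Hsp90b1 without a call. Pdia6, Calr and Canx also had sites, and their footprints were below their DMSO level.

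Over the 11 ribo-seq libraries the members did not share one profile. Each of 8 members correlated with the mean of the other members at r from 0.71 (Ganab) to 0.90 (Pdia3), while Hspa5 and Hsp90b1 were at −0.31 and −0.33. The 5 other transcripts of at least 20 CPM closest to the members' mean profile, of 6783 considered, were Tmx1 (r = 0.92), which encodes a disulfide isomerase of the ER membrane, Dpy19l4 (0.91), Agpat5 (0.89), 9330182L06Rik (0.89) and Sdad1 (0.89).

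Genes with neighbouring roles were read from 8 lists fixed for this comparison, also with earlier results known. Over all transcripts 40.6% were called for footprints under Torin1 in KO cells, 2391 of 10822 lower and 1999 higher, and the counts below are given beside that share, with no test of the lists. Under Torin1 in KO cells, other protein disulfide isomerases and thiol oxidases had 13 of 16 transcripts with lower footprints and none higher. P4hb, the founding disulfide isomerase, fell by 1.82 ± 0.11 on the log2 scale and Txndc5 by 2.43 ± 0.17 (adjusted p of 1.1e-15 and 1.89e-13). Prolyl isomerases and collagen-folding enzymes had 9 of 12 lower and none higher, with the lysyl hydroxylase Plod1 at −2.42 ± 0.14 and the cyclophilin Ppib at −1.48 ± 0.11. BiP co-chaperones and partners had 8 of 15 lower and 1 higher, with Creld2 at −1.91 ± 0.15 and Sdf2l1 at −1.13 ± 0.14. Without scaling beyond library size, disulfide isomerases had 10 lower and 1 higher, prolyl isomerases 9 and 0, and BiP partners 6 and 2.

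The next lists cover glycan handling, translocation and ER-associated degradation. Glycan trimming and lectin quality control had 6 of 11 lower and none higher. Mogs, glucosidase I, which acts just before glucosidase II, was at −3.76 ± 0.18, and the mannosidase Man1b1 at −2.00 ± 0.18. Translocation and N-glycan transfer had 25 of 35 lower and 2 higher, with the oligosaccharyltransferase subunits Ddost at −1.60 ± 0.11 and Rpn1 at −1.50 ± 0.10. ER-associated degradation had 10 of 19 lower and 1 higher, with Herpud1, a membrane protein of that machinery, at −1.32 ± 0.14. Herpud1 mRNA fell by 1.83 ± 0.08 and its TE was higher, at 0.51 ± 0.17. Without scaling beyond library size, glycan trimming had 5 lower and 1 higher, translocation 19 and 3, and ER-associated degradation 7 and 4.

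Sensors and factors of the unfolded protein response had 3 of 16 lower and 6 higher, and 3 lower and 9 higher without scaling beyond library size. Atf4 footprints were at −1.52 ± 0.12, with mRNA at −1.02 ± 0.07, and Atf6b, a relative of ATF6, was at −1.39 ± 0.15. Both were named for the smallest adjusted p and do not stand for this list, whose median footprint change was 0.30. Cytosolic and mitochondrial chaperones, outside the ER, had 13 of 27 lower and 1 higher, and 9 lower and 9 higher without that scaling, with Hspa8 at −2.24 ± 0.12 and Hsp90ab1 at −1.48 ± 0.10. Hspa8 and Hsp90ab1 were named for the smallest adjusted p of their list, so they do not stand for its other members. Their ER relatives Hspa5 and Hsp90b1 were at 0.28 and 0.21, the latter not called. The difference between these pairs was not tested.

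In KO against ctrl in Torin1 17 of the 151 list transcripts tested were called for footprints, beside 6.03% of all transcripts (433 lower and 218 higher of 10792). Prolyl isomerases and collagen folding had 4 of 12 lower, led by Plod1 (−0.99 ± 0.16) and Plod3 (−0.48 ± 0.11). Disulfide isomerases had 3 of 16 lower, with Txndc5 at −0.93 ± 0.21 and Tmx4 at −0.49 ± 0.11. Glycan trimming had 2 of 11, Man1b1 (−0.85 ± 0.22) and the cargo lectin Lman2 (−0.58 ± 0.14), and BiP partners 2 of 15, Creld2 (−0.64 ± 0.16) and Sdf2l1 (−0.63 ± 0.14). Translocation had 3 of 35 lower, led by the signal recognition receptor subunit Srprb (−0.72 ± 0.15) and Ssr2 (−0.48 ± 0.12). Unfolded protein response factors had 1 lower, Atf6b (−0.81 ± 0.16), and 2 higher of 16, with the NF-Y subunit Nfyb at 0.58 ± 0.15. ER-associated degradation (0 of 19) and cytosolic and mitochondrial chaperones (0 of 27) had none called by edgeR or DESeq2, with 4 and 3 transcripts at an unadjusted p under 0.05. Hspa8 was at 0.14 ± 0.10 and Hsp90ab1 at −0.02 ± 0.09.

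**Figure D5:**
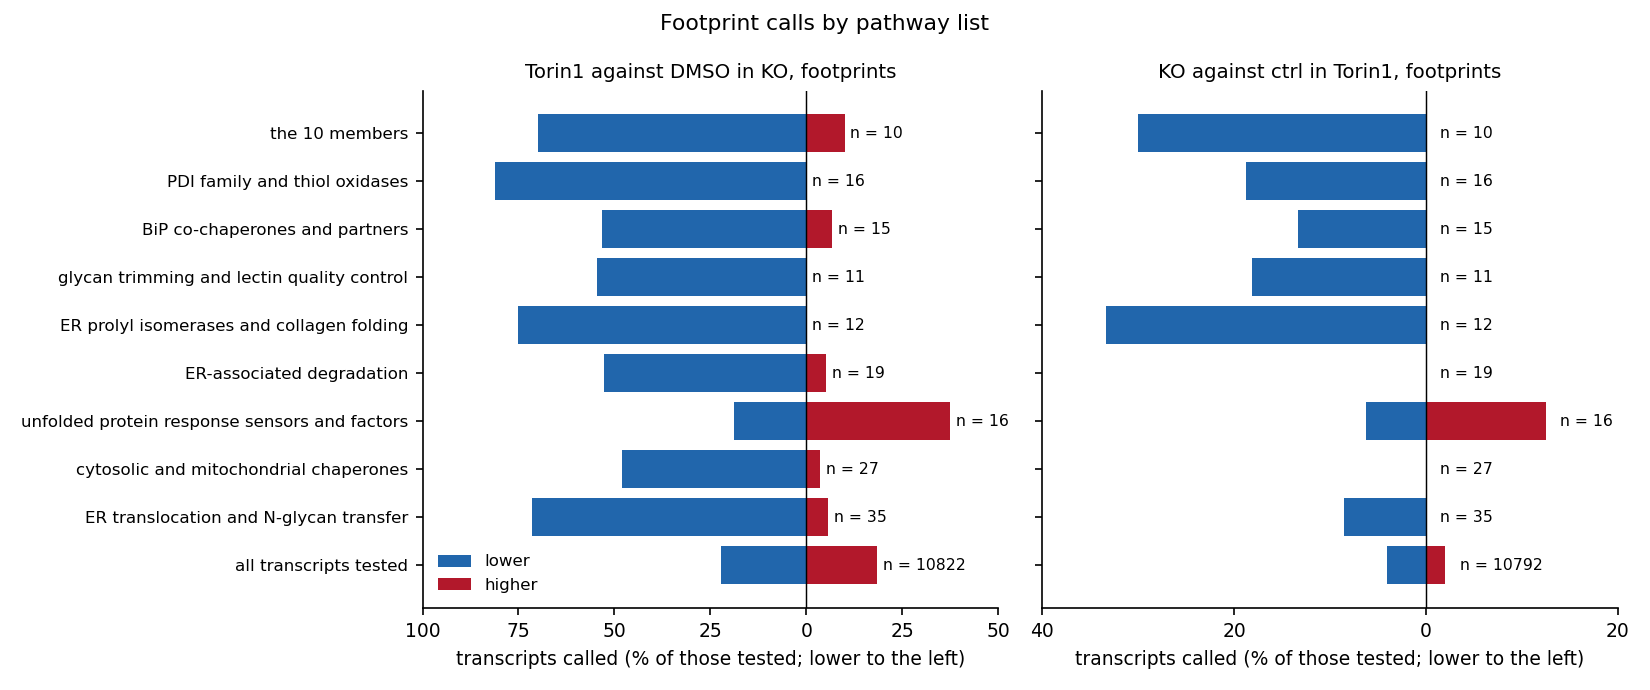
Share of transcripts called for footprints (x axis, %; lower to the left, higher to the right) among the 10 members, the 8 lists and all transcripts tested, for Torin1 against DMSO in KO (left) and KO against ctrl in Torin1 (right); n is the number tested. The members have 7 of 10 lower on the left and 3 of 10 on the right, and the unfolded protein response list is the one with more higher than lower in both panels.

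In DMSO no transcript of the 151 tested in the 8 lists was called between KO and ctrl for footprints by edgeR or DESeq2, with 11 at an unadjusted p under 0.05. For the footprint interaction edgeR called none and DESeq2 1, with 28 at an unadjusted p under 0.05. In ctrl cells under Torin1 15.6% of all transcripts were called for footprints, 1062 lower and 608 higher of 10693. The lists held 7 of 16 lower for disulfide isomerases, 6 of 12 for prolyl isomerases and collagen folding, 3 of 11 for glycan trimming and 10 of 27 for cytosolic and mitochondrial chaperones, with none higher. Translocation had 13 of 35 lower and 2 higher, BiP partners 6 of 14 lower and 1 higher, ER-associated degradation 4 of 19 lower and 1 higher, and unfolded protein response factors 2 of 16 lower and 1 higher. Without scaling beyond library size, disulfide isomerases in ctrl had 5 lower and 1 higher, and prolyl isomerases 5 and 0. Glycan trimming then had 2 and 1, cytosolic and mitochondrial chaperones 6 and 4, and translocation 6 and 4. BiP partners had 4 and 1, ER-associated degradation 3 and 4, and unfolded protein response factors 1 and 2. In the main fit P4hb was at −1.44 ± 0.13 and Hspa8 at −2.18 ± 0.13 in ctrl cells, beside 0.27 ± 0.16 for Hspa5. The Torin1 and genotype comparisons share libraries, so their values stand side by side here and were not correlated.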

How the data were processed

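Per the study's methods, the authors removed adapters (cutadapt), aligned reads to the mm10 genome (HISAT2) and to canonical transcripts of Ensembl (bowtie2), and summed RNA-seq reads or ribosomal P-sites over each CDS. The deposited tables hold these raw counts after the authors' filter, 1 table for each assay and pair of conditions, together with the authors' own fold changes and p-values, which were not used. The 2 deposited TE tables were not used either.

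Counts were fitted with edgeR 4.0.16 (R 4.3.3; TMM, glmQLFit, glmQLFTest) on transcripts with more than 1 CPM in all libraries of at least 1 condition compared, with Benjamini-Hochberg adjustment over all transcripts at 0.05. TE was the interaction of assay and condition in 1 model over both assays, in place of the authors' RiboDiff, which was not run. The genotype term used all 4 conditions. SE is the log2 fold change over the root of F. DESeq2 1.42.0 was an alternative. The fits were tested on simulated data. Levels are TMM-scaled CPM, and the ratio of footprints to mRNA divides a library's footprint CPM by the condition's mean mRNA CPM.

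Members, lists and tests were chosen with earlier results of these data known. The text names all members, Eif4e3, up to 2 called non-members per list with the smallest adjusted p for footprints in KO against ctrl in Torin1 and in Torin1 against DMSO in KO, and the 5 transcripts most like the members' mean footprint profile (log2(CPM + 1)). A result under this rule is not reported here. Transcript lengths are from GENCODE M21, where 12185 of 12238 transcripts matched. The RNA-seq table of KO and ctrl in DMSO repeats a replicate name, so its columns were mapped to conditions only, and fits of that comparison that need replicate numbers took the counts from the Torin1 tables.

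Replicate numbers are passages per the labels. Deviations of same-numbered libraries from their condition means correlated at 0.04 to 0.74 in RNA-seq and at −0.04 to 0.14 in ribo-seq. Those of differently numbered libraries correlated at −0.59 to 0.43 and at −0.14 to 0.12. For Torin1 against DMSO in RNA-seq every same-numbered value was above the others, at 0.06 to 0.23 against −0.27 to 0.05 in ctrl. In KO these values were 0.17 to 0.24 against −0.16 to −0.05. In ribo-seq the same-numbered values were also above the others in ctrl, at 0.12 to 0.14 against −0.14 to 0.01. In KO the ribo-seq ranges overlapped, at −0.00 to 0.10 against −0.10 to 0.04. The fit without a block was the main one, and the blocked value is given where it changes a call. P-values measure the spread between passages of 1 ctrl and 1 KO population.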

Additional observations from a re-analysis of the deposited data

Results flagged for a closer look

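Hyou1 and Ganab were set apart because their footprint change with Torin1 differed between KO and ctrl cells by the test of the difference itself (the edgeR interaction term, Benjamini-Hochberg adjusted over 10563 transcripts). The term was −0.92 for Hyou1 and −0.97 for Ganab on the log2 scale, lower in KO. All 3 KO passages lay below both ctrl passages for each gene. The Hyou1 term was called in 11 of 16 alternative fits, and the Ganab call was absent without KO Torin1 replicate 1. For TE the term was called for no transcript by edgeR. The members were chosen with results of these data known, so the term is a description of these genes.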

How the results depend on the processing

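No value of a called member changed sign in 2250 fits of 150 member values; 50 lost and 30 gained a call. With all 4 conditions in one fit, members called for mRNA became 1 in ctrl (0 before) and 0 in KO (4 before), for footprints in ctrl 3 (1 before) and for TE in ctrl 1 (0 before). Over all transcripts the one fit called 846 for TE in ctrl (488 before). Without scaling beyond library size, 3 were called for footprints in ctrl, 2 for TE in ctrl (0 before) and 4 for TE in KO (7 before). Over all transcripts those calls were 2375 (1670 before), 508 (488 before) and 3892 (2990 before). With the replicate block 3 were called for footprints in ctrl; the blocked footprint counts were 10 in KO (8 before) and 4 in KO against ctrl in Torin1 (3 before), and the block gained Hspa5 for TE in the latter and changed no other member's call. Over all transcripts the blocked footprint calls were 1787 in ctrl (1670 before) and 4759 in KO (4390 before). In KO against ctrl in Torin1 they were 776 (651 before), and for TE 421 (299 before). By DESeq2 1 member was called for the TE interaction (0 before). The cause of these shifts was not tested.

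Leaving out 1 library gave, for mRNA, 0 to 2 members in ctrl, 0 to 4 in KO and 0 to 0 elsewhere. For footprints it gave 1 to 3 in ctrl, 7 to 9 in KO, 0 to 0 in DMSO, 3 to 4 in Torin1 and 0 to 3 for the interaction. For TE it gave 0 to 1 in ctrl, 6 to 7 in KO, 0 to 0 in DMSO, 2 to 3 in Torin1 and 0 to 0 for the interaction. With 1 ctrl DMSO footprint library left, its spread is assumed to be that of the other conditions.

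Transcripts called for the footprint interaction ran from 0 (without KO Torin1 replicate 1) to 50 (without ctrl DMSO replicate 1), and for mRNA in KO against ctrl in DMSO from 0 to 866 with the block. Ribo-seq depth, down to 669010 counts in ctrl DMSO replicate 3, with 2 libraries in that condition, limits the ctrl and interaction contrasts.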
